A study of Arabidopsis thaliana with 18 samples.

Results

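Guard cells of the rgs1 line of Arabidopsis thaliana were compared with those of the wild type, ecotype Col-0, over every sugar treatment of the experiment. The comparison takes all 9 rgs1 and all 9 wild-type samples of the series, 18 of 18, with the treatment as a term of the fit, and it was read over all 22746 probe sets of the deposited table. In each genotype 3 samples came from leaf strips floated without sugars, 3 from strips with 150 mM mannitol and 3 from strips with 150 mM sucrose, and all solutions held 0.1 mM CaCl2 beside 50 mM KCl. Strips were kept in them for 5 h. Leaves were mature, from plants of 8 to 10 weeks that had not begun to flower, grown in days of 8 h light. The rgs1 line is described by the study as a null mutant, rgs1-2, and the wild type carries no transgene. Every sample was 50 to 100 guard-cell pairs cut by hand from freeze-dried leaf strips of 1 plant, and its RNA was amplified in 2 rounds before it was hybridised to 1 ATH1 array. The third biological replicate came from plants grown some months after those of the other replicates.

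RGS1 spans the plasma membrane and carries an RGS domain, which speeds the hydrolysis of GTP by the G-protein alpha subunit GPA1 and so holds the G protein in its resting state. In seedlings, glucose causes RGS1 to be taken into the cell, and the G protein becomes active. Plants without RGS1 are known for altered responses of seedlings to sugars, which is the question that the rgs1 samples address in guard cells.

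The targeted gene itself, RGS1 (AT3G26090), was low in the mutant. On a log2 scale its level in wild-type samples without sugars was 9.48, 10.26 and 10.37, in those on mannitol 8.87, 10.34 and 8.17, and in those on sucrose 9.59, 9.52 and 10.31. The rgs1 samples without sugars had 5.13, 3.42 and 4.68, those on mannitol 5.75, 4.93 and 5.73, and those on sucrose 3.14, 3.69 and 3.57. All 9 rgs1 arrays lay below all 9 wild-type arrays. The means were 9.66 ± 0.76 (SD, n = 9) and 4.45 ± 1.01 (SD, n = 9), a difference of -5.21 on the log2 scale or 37.0-fold.

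The difference of RGS1 had a standard error of 0.41 and a 95% interval from -6.06 to -4.36 (limma, adjusted p = 1.41e-06). An exact permutation test of the genotype labels within each treatment gave p = 0.00025, two-sided, the smallest that its 8000 arrangements allow. A log2 value of 4 was taken as the level above which a probe set was read as expressed, and 5 of 9 rgs1 arrays reached it for RGS1, so that the size of the fold depends on the floor of the arrays. Where the probes of RGS1 lie with respect to the mutation is not given in the sources used here.

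**Figure D1:**
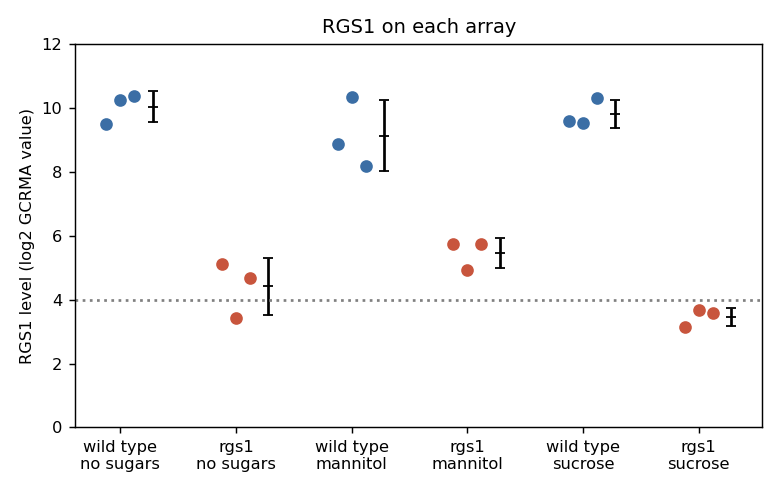
RGS1 level (log2 GCRMA value) on each array, with wild-type arrays in blue and rgs1 arrays in red for the 3 treatments, the mean and SD of each group in black and a dotted line at a log2 value of 4. The wild-type arrays lay between 8.17 and 10.37 and the rgs1 arrays between 3.14 and 5.75.

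RGS1 was also the only gene that the genotype changed by the test. Of 22746 probe sets, 10853 reached a log2 value of 4 on at least 9 arrays and were tested, and 1 of them was called at an adjusted p under 0.05 (limma, Benjamini-Hochberg), which is 0.00921%. After RGS1 the smallest adjusted p was 0.804. An unadjusted p under 0.05 was found for 572 genes or 5.27%, of which 300 (2.76%) were higher and 272 (2.51%) lower in rgs1. The estimates fell evenly around 0, with 49.5% of them higher in rgs1 and a median of -0.0049 on the log2 scale.

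A missing call does not show that the genotypes were alike, and the intervals say how far the data reach. The 95% interval of the difference lay within 2-fold either way for 4723 genes (43.5%) and within 4-fold for 10149 genes (93.5%). The intervals of the remaining 704 genes, RGS1 among them, reached beyond 4-fold. The median size of a genotype difference was 0.26 on the log2 scale and the median standard error 0.37. In the same fit the treatment moved far more genes. Any treatment term was called for 700 genes (6.45%) and sucrose against mannitol for 633 (5.83%), with a median size of 0.48. Differences of at least 1 on the log2 scale were fitted for 386 genes between the genotypes, 177 higher and 209 lower in rgs1. Between sucrose and mannitol they were fitted for 2300 genes. Sucrose against mannitol rests on fewer arrays than the genotype term, so its estimates scatter more by chance and the sizes are not strictly comparable. Genotype accounted for 5.14% of the variance of the genes tested with 1 degree of freedom, treatment for 26.1% with 2, and replicate number for 11.2% with 2. A term without any effect also takes a share, which grows with its degrees of freedom. These shares by themselves thus do not show an effect.

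Whole arrays were also compared. Arrays of the same genotype and treatment had a mean Pearson correlation of 0.936 (18 pairs), and arrays of the same treatment from the other genotype had 0.939 (27 pairs). The points of each correlation are probe sets of 2 arrays and not independent replicates. On the leading principal component, with 20.6% of the variance, genotype explained 1.96% and treatment 71.2% of the spread. Among the leading 6 components genotype explained most on the third, which held 9.48% of the variance, with 21.2% for genotype and 12.4% for treatment. The array farthest from the rest was rgs1 sucrose replicate 1, with a mean correlation of 0.900 with the other arrays.

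**Figure D2:**
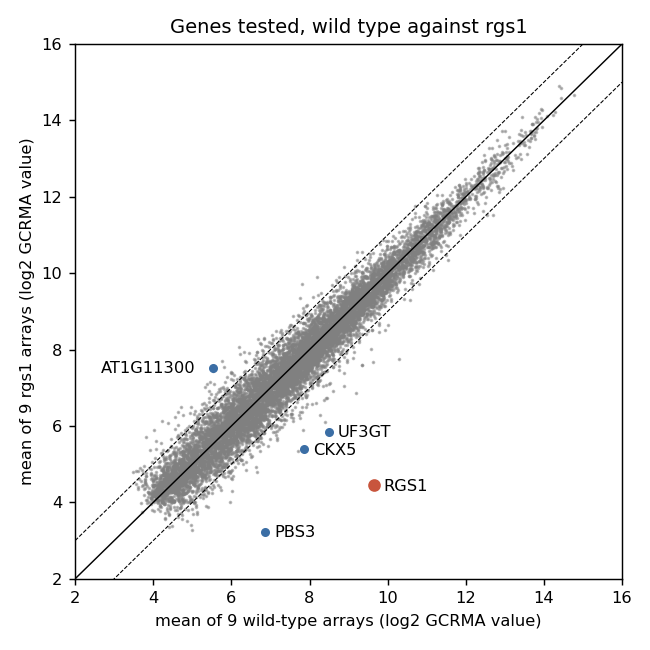
Mean level of each of the 10853 genes tested over the 9 wild-type arrays (x axis) and the 9 rgs1 arrays (y axis), both as log2 GCRMA values. The solid line marks equal means, the dashed lines a 2-fold difference and blue points 4 other named genes of large difference, and RGS1 (red) is the point farthest from the line at 9.66 and 4.45.

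The list of the G-protein core held RGS1, subunits of the G protein, and RACK1A, RACK1B and RACK1C, which are scaffolds and not subunits. Apart from RGS1 none of its genes was called. Of 12 genes listed 10 were on the array, all 10 were tested, and 1, RGS1, passed. The list's median difference was -0.66 on the log2 scale, against -0.0049 over all genes tested. Without RGS1 the other 9 also had a median of -0.66, with estimates of 7 lower and 2 higher in rgs1, and 2 of them lower at an unadjusted p under 0.05. Over all genes tested 49.5% of the estimates were higher, and 2.51% were lower at that threshold. The 2 genes past it were RACK1B and RACK1C, at -1.08 and -1.44, and RACK1A had -0.66. The subunits ran from -0.81 for AGG1 to 0.07 for XLG2, and none had an unadjusted p under 0.05 in limma. Without replicate 1 the median of the list was -0.39.

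GPA1 (AT2G26300), the canonical alpha subunit on which RGS1 acts, had log2 values from 8.42 to 9.76 with a median of 9.10 in the wild type, and from 7.04 to 9.67 with a median of 8.47 in rgs1. The arrays of both genotypes overlapped, with 4 of 9 rgs1 arrays below all wild-type arrays. Its difference was -0.48 (limma, standard error 0.31, interval -1.13 to 0.18, adjusted p = 0.911). By treatment it was -1.26 without sugars, -0.07 with mannitol and -0.10 with sucrose.

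The beta subunit gene AGB1 (AT4G34460) had 7.88 to 9.46 with a median of 8.98 in the wild type and 5.20 to 9.05 with a median of 8.72 in rgs1. The groups overlapped, with 2 rgs1 arrays below all wild-type arrays. Its difference of -0.66 had an interval from -1.60 to 0.28 (limma, adjusted p = 0.911). For AGG1 (AT3G63420), a gamma subunit gene, levels ran from 5.87 to 8.42 with a median of 7.44 in the wild type and from 4.88 to 7.75 with a median of 7.07 in rgs1. They overlapped for most arrays, and the difference was -0.81 (interval -1.76 to 0.13, limma, adjusted p = 0.905). The other gamma subunit genes, AGG2 and AGG3, were not analysed here.

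Extra-large G proteins, which pair an alpha-like domain with a long amino-terminal region, differed little in their estimates. XLG1 (AT2G23460) had medians of 8.58 and 8.83 in wild type and rgs1, a difference of 0.07 with an interval from -0.53 to 0.66. XLG2 (AT4G34390) had medians of 9.19 and 9.76, with a difference of 0.07 and an interval from -0.83 to 0.97. XLG3 (AT1G31930) had medians of 10.54 and 10.60, with a difference of -0.12 and an interval from -0.79 to 0.55. For all 3 genes a 2-fold difference of the genotypes lies outside the interval and the arrays of the genotypes overlapped.

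RACK1 proteins are ribosome-bound scaffolds built like a G-protein beta subunit, and RACK1C and RACK1B had the largest estimates of the list after RGS1. RACK1C (AT3G18130) ran from 4.99 to 11.05 with a median of 7.77 in the wild type, and from 3.79 to 9.36 with a median of 5.55 in rgs1. The groups overlapped broadly, and the highest array of each genotype was one with sucrose. Its difference was -1.44 (limma, standard error 0.55, interval -2.61 to -0.28, unadjusted p = 0.018, adjusted p = 0.875). RACK1B (AT1G48630) ran from 6.62 to 12.70 with a median of 9.49 in the wild type and from 5.27 to 11.03 with a median of 7.99 in rgs1. It overlapped likewise, and the difference was -1.08 (interval -2.09 to -0.08, unadjusted p = 0.036, limma, adjusted p = 0.905). RACK1A (AT1G18080) had medians of 9.22 and 8.37 and a difference of -0.66 (interval -1.50 to 0.18). The 3 estimates were lower in rgs1 in each treatment, from -0.22 to -1.98, and none of them passed the adjusted test.

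**Figure D3:**
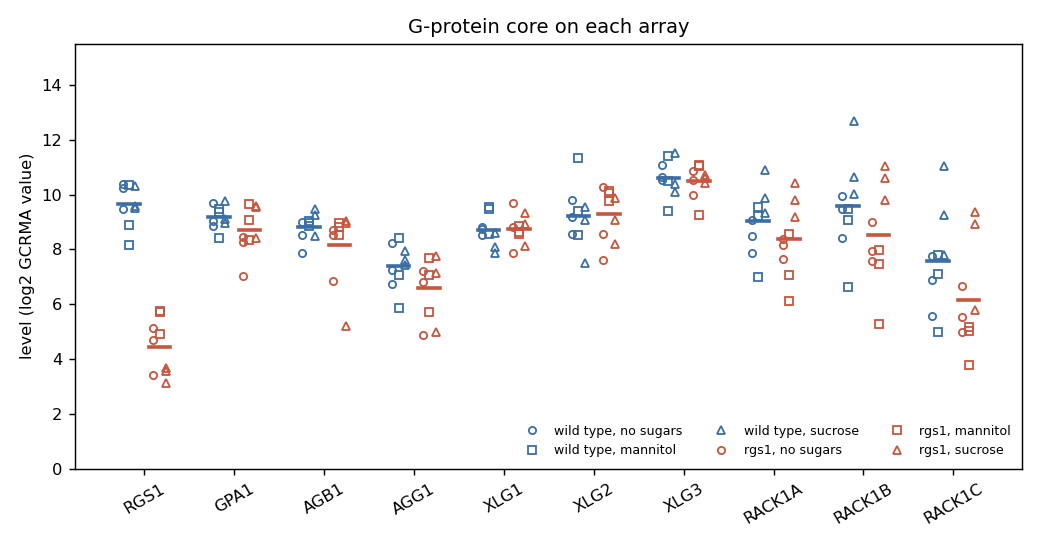
Level (log2 GCRMA value) of the 10 G-protein core genes on each array, with wild type in blue and rgs1 in red, circles for no sugars, squares for mannitol, triangles for sucrose and a bar at the mean of 9 arrays. RGS1 alone separates the genotypes, with means of 9.66 and 4.45, while the arrays of the other 9 genes overlap.

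Partners of RGS1 and of the G protein showed no called difference. Of 17 listed, 16 were on the array and 15 were tested, and 0 passed an unadjusted p under 0.05 in limma, against 5.27% of all genes. The median difference was 0.09, the estimates ran from -0.48 to 0.39, and the interval of all 15 lay within 4-fold. The kinases that phosphorylate the tail of RGS1, WNK8 (AT5G41990), WNK10 (AT1G64630) and WNK1 (AT3G04910), had differences of 0.30, 0.17 and 0.06. VPS26A and VPS26B, retromer subunits of endosomal sorting, had 0.09 and 0.39. NDL1, NDL2 and NDL3, which bind AGB1, had -0.37, 0.25 and 0.27.

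The most tightly bounded partner was PLDALPHA1 (AT3G15730), a phospholipase D that binds GPA1. It had 10.50 to 11.59 with a median of 10.93 in the wild type and 10.52 to 11.72 with a median of 11.26 in rgs1. The groups overlapped almost wholly, and the difference of 0.23 had an interval from -0.22 to 0.68. The Golgi hexose transporter gene SGB1 had 0.02 (interval -0.52 to 0.57) and the hexokinase and glucose sensor HXK1 had -0.10 (interval -1.01 to 0.80). GTG2 and ARD1, whose probes are shared with relatives, had 0.10 and -0.33. GCR1, a receptor-like membrane protein, was not tested, since its medians were 2.69 and 2.73 in wild type and rgs1.

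Further lists covered sugar responses, guard-cell function, stress and growth. Over all 22 lists, markers included, 242 different genes were tested, RGS1 was the only one called, and 14 (5.79%) had an unadjusted p under 0.05, 4 higher and 10 lower in rgs1. This share is close to the 5.27% of all genes. The median difference of the listed genes was -0.0045.

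Among genes of sugar sensing, 19 of 24 were tested, with 0 called, 2 higher at an unadjusted p under 0.05 and a median difference of -0.04. Both were bZIP transcription factors. BZIP11 (AT4G34590) had 7.81 to 10.63 with a median of 9.06 in the wild type and 9.32 to 11.34 with a median of 10.34 in rgs1. The arrays overlapped, with 2 rgs1 arrays above all of the wild type. Its difference was 1.03 (limma, standard error 0.29, unadjusted p = 0.0025, adjusted p = 0.875), with 0.87 without sugars, 0.99 with mannitol and 1.24 with sucrose. BZIP44 (AT1G75390) had 1.68 to 7.29 with a median of 4.57 in the wild type and 3.74 to 8.30 with a median of 7.25 in rgs1. The spread was wide in both, and the difference was 1.69 (standard error 0.71, limma, adjusted p = 0.897). The 6 other bZIP genes tested on this list, BZIP1, BZIP2, BZIP10, BZIP25, BZIP53 and BZIP63, had -0.14, 0.15, 0.67, -0.45, -0.17 and 0.23. The starvation-activated kinase genes KIN10 and KIN11 had -0.04 (interval -0.71 to 0.62) and -0.31 (interval -1.16 to 0.54).

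Genes that sugar starvation induces had a median difference of -0.06 over 19 tested, and 0 of them had an unadjusted p under 0.05 in limma. GDH1 and GDH2, glutamate dehydrogenases, had 0.70 and -0.41. Those that sugar induces had a median of 0.09 over 11 tested, with SBE2.2 (AT5G03650), a starch-branching enzyme, at 0.96 (interval 0.06 to 1.87, limma, adjusted p = 0.905). PAP1 (AT1G56650), a MYB factor that turns on anthocyanin synthesis, spread from 3.21 to 13.32 in the wild type and from 2.05 to 11.83 in rgs1. With so wide a spread its difference of -1.71 had an interval from -4.32 to 0.90.

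Sugar transport and cleavage had a median of -0.31 over 19 genes tested. STP13 (AT5G26340), a hexose and proton symporter, had 12.26 to 13.58 with a median of 12.81 in the wild type and 11.82 to 12.60 with a median of 12.26 in rgs1. In rgs1, 5 of 9 arrays lay below all wild-type arrays and the rest overlapped. Its difference was -0.61 (limma, standard error 0.23, interval -1.09 to -0.13, unadjusted p = 0.0157, adjusted p = 0.875). The related STP4 and STP1 had -0.35 (interval -0.75 to 0.06) and -0.15 (interval -0.56 to 0.25), and the sucrose symporters SUC1 and SUC3 had -0.61 (interval -1.32 to 0.11) and -0.31 (interval -0.83 to 0.20). The members higher in rgs1 by the estimate were TMT2, SPS1F, CWINV3 and CINV1, at 0.73, 0.28, 0.19 and 0.08.

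Guard-cell ion transport had a median of 0.02 over 23 tested genes, and the interval lay within 4-fold for all 23 and within 2-fold for 13. AHA2 (AT4G30190), a plasma membrane proton pump that powers stomatal opening, had 11.56 to 13.06 with a median of 12.12 in the wild type and 10.30 to 13.05 with a median of 11.37 in rgs1. Here 5 of 9 rgs1 arrays lay below the wild type, and its difference was -0.64 (interval -1.26 to -0.03, limma, unadjusted p = 0.042, adjusted p = 0.905). AHA1 (AT2G18960), its close relative, had -0.44 (interval -0.89 to 0.01). The anion channel gene SLAC1 had 0.15 (interval -0.30 to 0.60), and the inward potassium channel genes KAT1 and KAT2 had 0.48 (interval -0.10 to 1.06) and 0.06 (interval -0.53 to 0.66).

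In abscisic acid signaling and response 26 genes were tested, with a median of 0.08 and 0 at an unadjusted p under 0.05 in limma. OST1, the kinase at the centre of stomatal closure, had 0.08 (interval -0.37 to 0.54), and the phosphatase genes ABI1 and ABI2 had -0.09 (interval -0.58 to 0.40) and -0.05 (interval -0.64 to 0.53). COR15A (AT2G42540), a cold-regulated chloroplast protein, had 1.32 (interval -0.05 to 2.69), with 0.72 without sugars, 3.32 with mannitol and -0.07 with sucrose. Calcium and reactive oxygen signaling had a median of 0.19 over 10 tested, stomatal development 0.09 over 7, the cell wall 0.14 over 17 and the circadian clock 0.08 over 14, each with 0 genes at an unadjusted p under 0.05 in limma.

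Of 11 jasmonate and wounding genes tested, 0 were called and 3 were lower at an unadjusted p under 0.05, against 2.51% of all genes. The list's median was -0.36, with 9 estimates lower and 2 higher, those of AOC1 at 0.03 and JAR1 at 0.36. LOX3 (AT1G17420), a lipoxygenase of jasmonate synthesis, had 3.38 to 11.18 with a median of 7.54 in the wild type and 2.45 to 8.63 with a median of 3.76 in rgs1. LOX2 (AT3G45140), another of these enzymes, had 8.54 to 12.48 with a median of 10.60 and 5.64 to 12.20 with a median of 9.08. MYC2 (AT1G32640), the transcription factor that drives jasmonate responses, had 8.99 to 11.25 with a median of 9.68 and 7.67 to 9.89 with a median of 8.85. In all 3 genes the lower part of the rgs1 arrays fell below the wild type, 3, 4 and 5 of 9 arrays, and the rest overlapped. The third of them, MYC2, is named because it also had an unadjusted p under 0.05. The differences of LOX3, LOX2 and MYC2 were -1.85 (standard error 0.60), -1.28 (standard error 0.51) and -0.84 (standard error 0.35), with adjusted p values in limma of 0.875, 0.875 and 0.895.

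In the defence list 19 genes were tested, with a median of 0.02, 1 gene higher and 1 lower at an unadjusted p under 0.05. PDF1.2 (AT5G44420), a plant defensin, had 2.47 to 5.15 with a median of 4.54 in the wild type and 2.84 to 11.07 with a median of 5.75 in rgs1. Its difference of 1.87 (limma, adjusted p = 0.882) was 4.27 with mannitol, 0.26 without sugars and 1.07 with sucrose. MPK6 (AT2G43790), a mitogen-activated protein kinase, had -0.72 (interval -1.38 to -0.07, limma, adjusted p = 0.905). The 5 cell-cycle genes tested had a median of -0.57, with KRP2 (AT3G50630), an inhibitor of cyclin-dependent kinases, at -0.81 (interval -1.59 to -0.03, limma, adjusted p = 0.905). The 6 heat-shock and chaperone genes had a median of -0.47, with HSP90.1 at -0.93 (standard error 0.51).

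**Figure D4:**
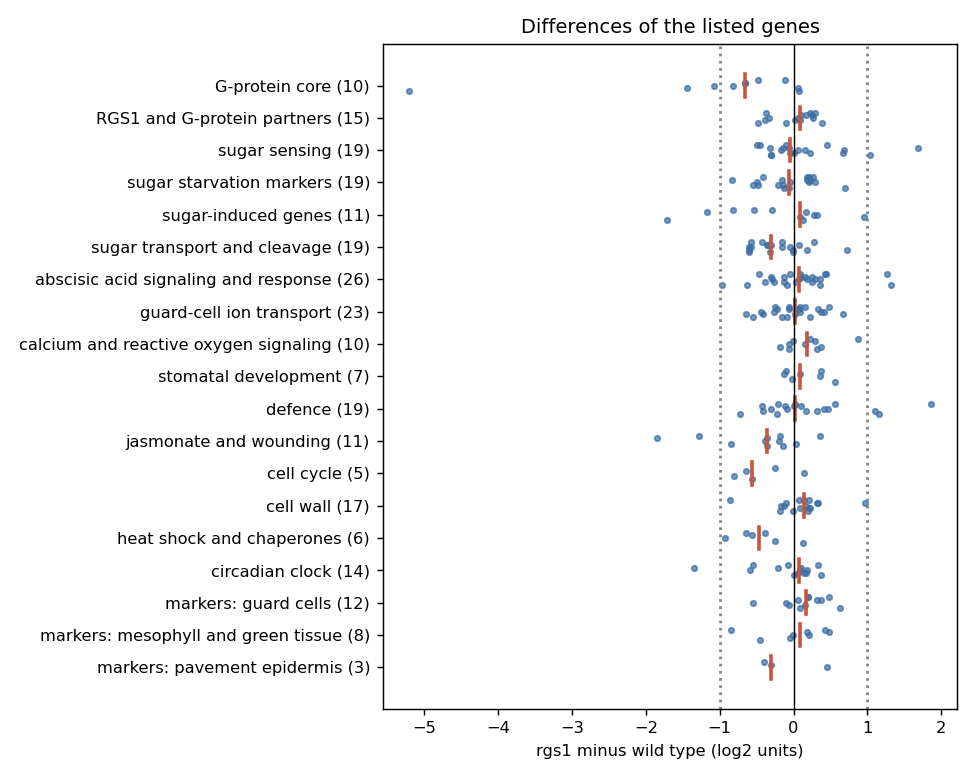
Difference of each tested list member (points), rgs1 minus wild type in log2 units, by list with the number tested in parentheses, the list's median in red and dotted lines at 2-fold. List medians ran from -0.66 for the G-protein core to 0.19 for calcium and reactive oxygen signaling, and RGS1 at -5.21 is the only called point.

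The cell type of the samples was checked against marker genes. Of 13 guard-cell markers 12 were on the array, all 12 were tested, and their median level per array was 11.77 to 12.63 in the wild type and 12.15 to 12.85 in rgs1. Their median difference was 0.17, 0 were called, and 0 had an unadjusted p under 0.05 in limma. Green-tissue markers had a median level of 10.77 to 11.83 and 9.80 to 12.04 and a median difference of 0.09 over 8 genes. The smallest p values of this list were those of LHCB2.2, a light-harvesting protein whose probes are shared with relatives, at 0.43 (interval -0.10 to 0.95) and of CA1, a carbonic anhydrase, at -0.85 (interval -2.10 to 0.40). Of 4 pavement-cell markers 3 were tested with a median of -0.31, and PDF1 stayed below 4 on all arrays. None of the 2 trichome, 4 phloem and 3 xylem markers on the array was tested. On single wild-type arrays GL1, GL2 and SUC2 reached 5.61, 7.68 and 8.69, and every rgs1 array lay under 4 for all 9 of these genes. Fewer cells of a type and less RNA per cell cannot be told apart in such samples.

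Next to RGS1 on chromosome 3, the 10 genes on either side were read to see whether the line differed around the gene. Of these 20 genes 16 were on the array, 8 were tested and 0 were called. AT3G26020, 8 genes before RGS1, was the only one with an unadjusted p under 0.05. It had 6.52 to 8.59 with a median of 7.15 in the wild type and 3.45 to 7.69 with a median of 6.60 in rgs1. The groups overlapped, and the difference was -1.16 (interval -2.27 to -0.05, limma, unadjusted p = 0.042, adjusted p = 0.905). The direct neighbours AT3G26085 and AT3G26100 had -0.64 (interval -1.67 to 0.38) and -0.07 (interval -0.95 to 0.80). The 8 genes that were not tested stayed below 4 on every array of both genotypes.

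Among single genes, the smallest p values after RGS1 are given with their values, although none passed. Higher in rgs1 by the estimate was AT5G60630, with 2.33 to 5.24 and a median of 4.04 in the wild type and 4.50 to 7.02 and a median of 5.84 in rgs1. In rgs1, 6 of 9 arrays lay above all wild-type arrays. Its difference was 1.89 (limma, standard error 0.41, unadjusted p = 0.000195, adjusted p = 0.804). Of like order were AT5G52750 at 1.47, AT1G15270 at 1.45, AT5G26731 at 1.25 and AT5G04320 (SGO2, a shugoshin) at 1.38. REV (AT5G60690), a homeodomain-leucine zipper factor of leaf polarity, had 1.54 (interval 0.69 to 2.38, limma, adjusted p = 0.875). FP6 (AT4G38580), a farnesylated protein, had 1.21, and VPS60.2 (AT5G04850), of endosomal sorting, had 1.1.

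Arrays of the genotypes did not overlap in any of the treatments, in the same direction each time, for 4 genes or 0.0369% of those tested. RGS1 is one, and the others were higher in rgs1. GPRI1 (AT2G20570), also called GLK1, a transcription factor of chloroplast development, had 8.50, 9.09 and 8.75 in the wild type and 9.24, 9.82 and 9.21 in rgs1 without sugars. With mannitol it had 6.80, 7.67 and 7.91 against 8.30, 8.71 and 8.34, and with sucrose 7.77, 7.92 and 7.86 against 9.14, 8.59 and 8.83. Each rgs1 array thus lay above the wild-type arrays of its own treatment, while the genotypes overlapped over all treatments. Its difference was 0.88 (limma, standard error 0.21, unadjusted p = 0.000611, adjusted p = 0.875).

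AT5G40540 had 9.05, 9.43 and 10.22 in the wild type and 10.40, 10.91 and 10.50 in rgs1 when no sugars were given. On mannitol it had 7.96, 8.17 and 8.22 against 8.43, 9.34 and 9.82, and on sucrose 8.91, 7.74 and 9.18 against 10.95, 9.43 and 9.28. The gap was narrow with sucrose, and the difference was 1.13 (standard error 0.29, limma, adjusted p = 0.875). OEP16-1 (AT2G28900), a channel protein of the outer plastid envelope, had 10.37 to 12.32 with a median of 11.23 in the wild type and 11.49 to 13.00 with a median of 11.74 in rgs1. It was highest with sucrose in both genotypes, and its difference was 0.67 (standard error 0.21, limma, adjusted p = 0.875). These 3 genes were singled out after their values were seen.

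Lower in rgs1 by the estimate, with the smallest p, was HOS1 (AT2G39810), a RING-type ubiquitin ligase of the cold response. It had 4.02 to 6.33 with a median of 4.66 in the wild type and 2.52 to 4.21 with a median of 3.66 in rgs1. In rgs1 6 of 9 arrays lay below all wild-type arrays, at or under the level of 4, and the difference was -1.34 (limma, standard error 0.32, unadjusted p = 0.000608, adjusted p = 0.875). RFR1 (AT3G23590), a Mediator subunit, had -1.56, AT1G10050 had -1.34 and AT1G74010 had -1.94. PAD1 (AT3G51260), an alpha subunit of the proteasome core, had 6.42 to 8.14 with a median of 7.25 and 4.71 to 7.39 with a median of 5.78. For PAD1, 7 of 9 rgs1 arrays lay below the wild type, and the difference was -1.22 (standard error 0.33, limma, adjusted p = 0.875). EIF3C (AT3G56150), of translation initiation, had -1.05, AT2G45700 had -1.03, AT5G02530 had -1.15 and AT1G72820 had -1.24.

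CKX5 (AT1G75450), a cytokinin oxidase that degrades the hormone, joined a small p to a large estimate. It had 5.73 to 9.73 with a median of 7.68 in the wild type and 3.38 to 7.94 with a median of 5.70 in rgs1. In rgs1 5 of 9 arrays lay below all wild-type arrays. Its difference was -2.47 (limma, standard error 0.64, interval -3.81 to -1.13, adjusted p = 0.875), with -1.44 without sugars, -2.37 with mannitol and -3.60 with sucrose.

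Differences of at least 2 on the log2 scale were fitted for 9 genes, and apart from RGS1 these, CKX5 included, were genes whose levels ranged widely within a genotype. Those other than RGS1 and CKX5 are named because of this size, after their values were seen. PBS3 (AT5G13320), an enzyme of salicylic acid synthesis, had 8.33, 8.27 and 2.03 in wild-type samples without sugars, 6.53, 11.37 and 6.77 in those on mannitol and 2.05, 8.82 and 7.62 in those on sucrose. In rgs1 it had 2.1, 2.09 and 2.04, then 7.89, 2.73 and 2.31, then 2.42, 1.98 and 5.48. Most wild-type arrays, 7 of 9, and 2 of 9 rgs1 arrays reached a value of 4. Its difference was -3.64 (limma, standard error 1.09, interval -5.92 to -1.36, adjusted p = 0.875).

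UF3GT (AT5G54060), a sugar transferase of anthocyanin synthesis, had 4.67 to 15.34 with a median of 7.17 in the wild type and 4.15 to 13.76 with a median of 4.71 in rgs1, a difference of -2.64 (standard error 1.23, limma, adjusted p = 0.905). The highest rgs1 value of UF3GT came from rgs1 sucrose replicate 1, the array farthest from the rest. AT4G22870, with probes shared with relatives, had -2.29, AT5G64120 (PRX71, a peroxidase) had -2.55, AT5G55050 had -2.35 and IGMT5 (AT1G76790), a methyltransferase of indole glucosinolates, had -2.30. AT1G11300 was the only one higher in rgs1, by 2.00 with an interval from -0.12 to 4.12.

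Whether the genotype difference depends on the treatment was tested as an interaction in a fit of all 18 arrays. Among the 10853 genes, 0 passed (limma's moderated F test, Benjamini-Hochberg), the smallest adjusted p was 1.00, and 307 or 2.83% had an unadjusted p under 0.05. For RGS1 the differences were -5.63 without sugars, -3.66 with mannitol and -6.34 with sucrose, with an unadjusted interaction p of 0.0108. The smallest interaction p was that of LSU2 (AT5G24660), a gene of the response to low sulfur. Its genotype difference was -1.48 without sugars, 2.33 with mannitol and -0.74 with sucrose (limma, unadjusted p = 0.000334). With mannitol the wild type had 5.42, 4.89 and 5.88 and rgs1 7.03, 8.28 and 7.88, and without sugars the wild type had 7.68, 6.97 and 7.63 and rgs1 6.30, 6.44 and 5.11. The genotypes lay apart in both treatments, in opposite directions, and overlapped with sucrose.

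The filter on 9 arrays leaves out a gene that is expressed in 1 group of 3 arrays only. The interaction was thus also tested with no filter, over all 22746 probe sets, where 5 genes were called. That fit did more than let in genes left out before. MYBC1 (AT2G40970), one of the 5, reached 4 on all 9 arrays of each genotype and had been tested already. Its unadjusted interaction p was 0.00502 with the filter on 9 arrays, and its adjusted p was 0.0265 with no filter (limma). How far the added low probe sets shaped the calls with no filter was not tested. AT1G29430 (SAUR62), of the family of small auxin-induced genes, had 7.21, 7.28 and 7.93 in rgs1 guard cells without sugars. In wild-type guard cells without sugars it had 3.58, 2.54 and 2.53, and on the 12 arrays with mannitol or sucrose it had 2.44 to 2.70. All 3 rgs1 arrays without sugars thus stood apart from all 15 others, which were near the floor. With no filter the interaction had an adjusted p of 0.000117 (limma), and between 1.23e-06 and 0.000714 when any 1 array was left out. It was 0.00126 over the 12608 genes of a filter on 3 arrays, which was added after the data had been seen and which this gene passed only through the 3 arrays where it is high, so that this value adds no support. In the treatment without sugars alone, the difference was 4.59 (standard error 0.46) with an adjusted p of 0.0667, which does not pass. As 4 is taken for the floor and the other arrays lie below it, the size of this difference depends on that floor.

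The probe set of AT1G29430 is shared with relatives, and the sources used here do not settle which member of the family it read. Of its neighbours in the SAUR cluster, SAUR63 (AT1G29440) had 2.72 to 7.91 in rgs1 without sugars and at most 4.04 on the other 15 arrays, AT1G29450 had 2.46 to 7.13 against at most 2.53, and AT1G29460 had 2.88 to 6.17 against at most 3.21. AT1G29500 and SAUR68 (AT1G29510) stayed below 4 on every array. AT1G08180 had a pattern like that of AT1G29430, with 6.53, 6.10 and 5.93 in rgs1 without sugars and 2.87 to 4.08 on the other 15 arrays. Its interaction had an adjusted p of 0.473 with the filter on 3 arrays and 0.0248 with no filter (limma).

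**Figure D5:**
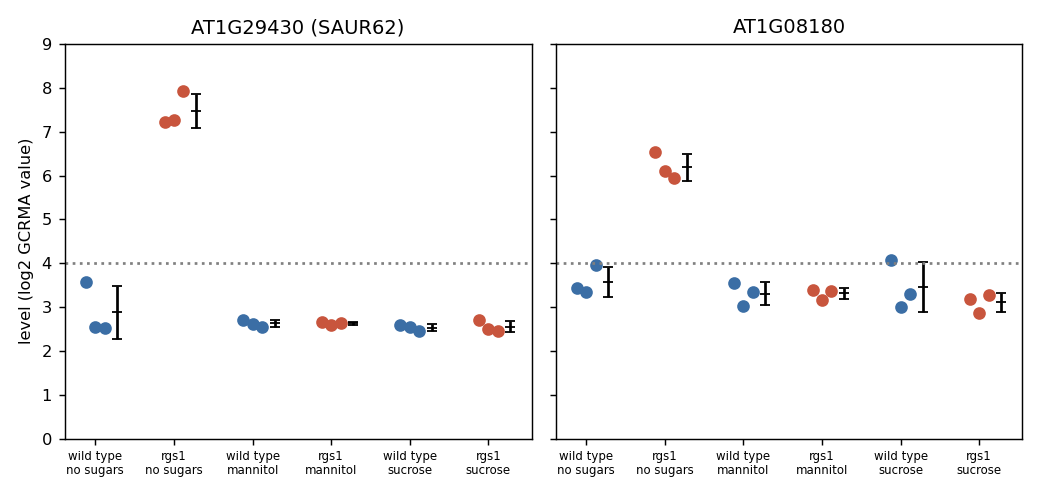
Level (log2 GCRMA value) of AT1G29430 and AT1G08180 on each array by genotype and treatment, with wild type in blue, rgs1 in red, the mean and SD of each group in black and a dotted line at 4. The 3 rgs1 arrays without sugars had 7.21 to 7.93 and 5.93 to 6.53, above the 15 other arrays of each gene.

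Besides RGS1 the study names 2 genes as expressed differently in rgs1. It reports that sucrose lowered AT1G49380 and raised AT2G40970 from the wild-type level. Both genes were low in level. AT1G49380, of cytochrome c biogenesis, had 5.31, 4.72 and 4.73 in the wild type with sucrose, the only arrays to reach 4. In rgs1 with sucrose it had 3.14, 3.04 and 3.09, and without sugars 2.46, 3.05 and 2.87 in the wild type against 3.66, 3.06 and 3.61 in rgs1. It was not tested in the main comparison, and its interaction had an adjusted p of 0.0126 with no filter and 1.00 with the filter on 3 arrays (limma). MYBC1 (AT2G40970), a MYB-related transcription factor, had 4.84 to 5.72 with a median of 4.95 in the wild type and 4.15 to 5.48 with a median of 5.03 in rgs1. Over all treatments its difference was -0.16 (interval -0.69 to 0.36). It was 0.54 without sugars, -1.20 with mannitol and 0.17 with sucrose, with an interaction p of 0.00502 before adjustment. Adjusted, it was 1.00 with the filter on 9 arrays and 0.0265 with no filter (limma). The filter on 9 arrays had kept MYBC1, so its call depends on the setting and not on being let in.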

How the data were processed

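Log2 values of 22746 probe sets on 18 ATH1 arrays, 1 per plant, were used as deposited. The authors had made these log2 values from the scans with MAS 5.0 image analysis and GCRMA, which corrects background, normalizes and summarises probes. No control probe sets were among them, and the 2 deposited tables held identical values. Array medians ran from 3.68 to 3.89, and the number of arrays limits the precision. Probe sets were named by locus; 22091 of 22591 single-locus identifiers matched the gene table and 21604 probe sets were nameable.

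Genes were fitted with limma 3.58.1 in R 4.3.3 (treatment plus genotype, constant prior, Benjamini-Hochberg at 0.05) where the log2 value was at least 4 on 9 of 18 arrays, in place of the study's removal of absent calls. Intervals are at 95%. The interaction was tested by a moderated F test. The fits were tested on simulated data. RGS1 was also tested by exact permutation. P-values measure the spread between plants.

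Named were RGS1, genes called, otherwise the 10 smallest p each way, the G-protein core and partners, the 2 smallest p of every other list, 10 genes on either side of RGS1 and 2 genes the study names. Genes with differences of at least 2, with arrays apart in each treatment or with a called interaction under other filters were added after their values were seen. Lists hold 341 entries, 326 different genes, 310 on the array. The comparison and lists were chosen with earlier results of these data known. A gene that pairs with no single locus was left out. Further list members in the text were picked as central ones after their values were seen. Counts were made with pandas 2.3.3 and numpy 2.4.6 in Python 3.11.15 and plots with matplotlib 3.10.9.

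Alternatives were other filters, quantile normalization, median centring, a trended, robust or absent prior, array weights, the replicate number as a block, the later batch as a term, no treatment term, single treatments, other thresholds and leaving out replicates and arrays. A further 2 were added after the data had been seen, a filter on 3 arrays and leaving out the 3 farthest arrays.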

Additional observations from a re-analysis of the deposited data

Results flagged for a closer look

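The interaction of genotype and treatment was called for 5 genes in some fits, and for all but AT1G29430 only with no filter. With no filter on low values, AT1G29430 had an adjusted interaction p of 0.000117, AT1G08180 had 0.0248, AT1G49380 had 0.0126, AT1G06580 had 0.0188 and AT2G40970 (MYBC1) had 0.0265 (limma, Benjamini-Hochberg). With the filter on 3 arrays AT1G29430 had 0.00126, but it passed that filter, added after the data had been seen, only through the 3 arrays where it is high. In that fit AT1G08180 had 0.473 (limma), AT1G49380 and MYBC1 were not called either, and AT1G06580 was not tested. MYBC1 also passed the filter on 9 arrays and was not called there, so its call depends on the setting with no filter. AT1G06580, which the report does not describe, reached 4.26 with sucrose in the wild type and stayed at or under 3.01 in rgs1, with 2 of 18 arrays above 4.

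Among 194 groups of 9 arrays, those of the 97 named and tested genes in each genotype, 14 (7.22%) had 1 array far from the others. For 9 values of 1 normal population chance gives about 1 in 20. The groups here mix 3 treatments, and some genes were named for their values, so that rate does not apply to them. In rgs1 sucrose replicate 1, AT1G72820 was lowest at 5.32, and NDL2 at 8.89, KRP2 at 6.72, UF3GT at 13.76 and AT4G22870 at 14.61 were highest. For UF3GT and AT4G22870 the next rgs1 arrays had 6.20 and 6.55. In wild type mannitol replicate 2, NDL3 was lowest at 2.71 and KAT1 lowest at 10.64, and AT3G26100 was highest at 11.16. Wild type sucrose replicate 1 had the lowest VPS26B at 2.2 and the lowest GDH1 at 2.84. The remaining ones were VPS26A at 6.15 in rgs1 mannitol replicate 3, VPS26B at 3.54 in rgs1 no sugars replicate 1, AHA1 at 12.97 in wild type no sugars replicate 2, each the lowest, and COR15A at 11.05 in wild type sucrose replicate 3, the highest. The part of these single arrays in the genotype differences was not tested gene by gene beyond leaving out each array.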

How the results depend on the processing

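RGS1 was called in 42 of 45 alternatives. Its difference was -4.96 with replicate 3 only (adjusted p = 0.979), -5.63 without sugars alone (adjusted p = 0.0667) and -3.66 with mannitol alone (adjusted p = 0.872), where 0 genes were called (limma). These fits hold 6 arrays each. Leaving out any replicate or array kept 1 gene called, with an RGS1 difference of -5.49 to -4.80. An unadjusted p under 0.05 takes 572 genes. The interaction called 5 genes with no filter, 1 with a value of 4 on any array and 1 with 4 on 3 arrays, and 0 in the other fits in which it was tested. It was not tested with replicate 3 only, without the treatment term, averaged over treatment groups or in fits of 1 or 2 treatments.

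The share of genes whose interval lies within 2-fold was 65.4% with no filter, 46.6% with a filter at 6, 45.7% with 4 on any array, 42.3% with 4 on 3 arrays, 41.2% with gene-by-gene spread, 49.3% with array weights, 18.5% with replicates 1 and 2 only, 37.9% with no treatment term, 42.1% averaged over treatment groups, 39.7% without the 3 farthest arrays and 18.5% to 42.8% when a replicate or an array was left out. Replicate numbers were not taken to pair the samples, since not all but 5 of 9 same-numbered pairs correlated above 0.1 and 7 of 18 samples lay closest to their own number. The study says that the third replicate came from later plants, and replicate number 3 of the labels was assumed to be that one. With this assumed batch as a term 1 gene was called. With the replicate block the share was 44.6%, 1 gene was called, and RGS1 differed by -5.21.

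All 20 genes of smallest p kept their sign in every alternative that gave them a value, and of the 96 named genes other than RGS1 that were fitted 56 did. The 20 were picked for their small p in the main fit, and the alternatives use the same arrays or a part of them. Their kept sign is thus largely a result of that choice and is no independent check of their differences. At an adjusted p under 0.05 none of the named genes other than RGS1 was called for the genotype in any alternative. At an unadjusted p under 0.05 all 20 pass in the main fit, which also follows from how they were picked.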

Other observations

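Without sugars alone, the smallest adjusted p values in limma were shared by 3 genes, RGS1, AT1G29430 and AT3G31540, at 0.0667. AT3G31540 differed by -4.76 (standard error 0.50). AT2G26710 followed with -2.93 (standard error 0.36, adjusted p = 0.170). None passed the threshold. These genes were singled out after their values were seen.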
